A study of Penicillium oxalicum with 6 samples.

Results

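The genes of DNA replication and the cell cycle of the filamentous fungus Penicillium oxalicum were followed in mycelia grown on glucose. They are the 186 of 8902 identified rows whose KEGG annotation names the pathway DNA replication or the pathway Cell cycle - yeast. The pathways hold 191 rows, and 5 with the Gene Ontology term protein kinase activity were set aside by the rule, while the same rule for the proteasome removed 0 rows. Of the 186 genes, 47 belong to DNA replication, 148 to the yeast cell cycle and 9 to both. The choice used annotation alone, not expression. KEGG pathways are assigned by similarity, and a best protein match or a Gene Ontology term gave a readable role to 135 of the genes, leaving 51 with none.

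Tags were counted in 3 strains, each with 1 library on glucose: M12, a uracil auxotroph with a pyrG mutation obtained from wild type 114-2 and used here as parent, Dmtr23B, a knockout of mtr23B, and Rmtr23B, in which the gene was put back. Whether the pyrG mutation is also present in Dmtr23B and Rmtr23B, and whether either strain is 1 clone or several, is not given in the sources used here. Each strain was cultured at 30 °C on 2% glucose as carbon source, first for 20 h from conidia and then, after transfer of the mycelium, for a further 24 h. The method, digital gene expression tag profiling, reads a short tag beside a CATG site of each polyadenylated transcript. No row of the table is named mtr23B, so the deletion was not checked in the counts.

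Before a cell divides it copies its DNA. The origin recognition complex marks the starting sites, Cdc6 helps to load the ring-shaped MCM helicase there, primase and polymerase alpha start each strand, and the clamp PCNA, placed by replication factor C, holds the main polymerases on the template, while flap endonuclease and ligase join the short fragments of the lagging strand. In yeast, cyclins and their kinases time these steps, the ubiquitin ligases SCF and anaphase-promoting complex remove cyclins and inhibitors, cohesin and condensin hold and compact the chromosomes, and checkpoint proteins such as Mad2 delay division until the spindle is in place. Fungal hyphae grow at their tips while nuclei divide inside shared compartments, and the same machinery also serves the divisions that form conidia, the asexual spores.

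Genes received 2013784 to 2147854 tags per library, 60.09% to 63.93% of all tags. Expression is given as TPM, which here means tags per 1000000 of a library's total, not divided by gene length, so levels are compared between strains and not between genes. The 186 genes together had 13564 tags in M12, 17091 in Dmtr23B and 13376 in Rmtr23B, or 4037, 5100 and 3981 TPM. Of them, 124 reached 10 TPM in at least 1 library (33.5 to 33.6 tags) and 62 did not, 1 of which had no tag in any library. The mean TPM of the 124 ranged from 5.66 to 412 with a median of 19.0. Each strain has 1 library, so intervals below are 95% intervals that cover counting error only, and no difference has a replicate check. In bulk mycelium fewer cells of a kind and less RNA per cell cannot be told apart. PDE_09832, annotated as a structural cell wall constituent with a sporulation term, took 13.5%, 0.465% and 26.0% of gene tags in M12, Dmtr23B and Rmtr23B. Of 7 markers of conidia and conidiophores, 5 lay at least 2-fold below both others in Dmtr23B: the regulator BrlA (PDE_00087) stood at 90.5, 5.37 and 89.3 TPM in M12, Dmtr23B and Rmtr23B, and the summed level of the 7 was 2781, 1465 and 1980 TPM. The 2 others were the hydrophobin RodA, at 1586, 1388 and 812 TPM, and WetA, with at most 8 tags. The part of PDE_09832 and of conidial cells in the differences below was not tested, apart from the scaling given with the overall shift.

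The number of replication and cell cycle genes set apart in the deletion strain depended on the strain it was compared with. Against the parent alone Dmtr23B was 2-fold higher in 12 and lower in 2 of 120 genes, or 11.7%, against 14.6%, 10.2% and 24.8% (higher, lower and in all) of all genes. Against the complemented strain alone it was higher in 29 and lower in 3 of 124, or 25.8%, against 25.9%, 11.1% and 37% of all genes. By a size rule, at least 2-fold above both or below both other strains on the TPM + 1 scale with at least 10 TPM in any library, 10 of 124 genes stood apart, 8 higher and 2 lower, or 8.06%. Over all 5756 genes the same rule gave 18.6%, of which 10.8% were higher and 7.82% lower. The minimum admits genes through the strain in which they are high: 19 of the 124, and 530 of the 5756, reached 10 TPM in Dmtr23B alone. With a mean of 10 TPM required instead, 5 of 105 genes were higher and 1 lower. In edgeR's quasi-likelihood test of the deletion library against the other 2, adjusted over 7351 genes, 1 of 169 tested genes fell and 0 rose (0 fell with library totals in place of TMM normalisation), with 5 lower and 5 higher at an unadjusted p under 0.05. Among all genes edgeR called 1.09% higher and 2.72% lower, or 3.81%, and 5.75% and 10.5% had an unadjusted p under 0.05. DESeq2 called 2 of 163 lower and 0 higher, against 4.22% and 1.02% of all genes. Both tests take the parent and the complemented strain as 2 samples of strains carrying mtr23B, and their p-values reflect no more than the spread among these 3 libraries.

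Differences of any size were counted over the same 124 genes. Dmtr23B had the highest value of the 3 in 87 of 124 genes and the lowest in 12, against 58.9% and 23.6% of all genes. Both counting intervals of the ratios to the parent and to the complemented strain lay above 1 in 46 genes and below 1 in 3, against 37.9% and 12.9% of all genes. The median log2 difference of Dmtr23B from the mean of M12 and Rmtr23B was 0.46 for the 124 genes and 0.38 for all 5756. The gap between these medians depended on the minimum: with a mean of 10 TPM required they were 0.37 and 0.37, and with no minimum 0.35 over all 186 genes and 0.30 over all 8902. With the first minimum, the median against the parent alone was 0.35 and 0.30, and against the complemented strain alone 0.46 and 0.46. After scaling to the median ratio of genes the value became 0.07 for the 124 genes and 0.00 for all, and counted relative to gene tags without PDE_09832 it became 0.20 and 0.13. After median-ratio scaling Dmtr23B was highest in 45 of 118 genes, against 36.9% of all genes. After median-ratio scaling 1 gene was 2-fold higher and 3 lower of 118, where 5.41% of all genes were higher and 11% lower, and after TMM scaling 1 was higher and 2 lower of 119, where the shares were 5.81% and 10.6%. The additional lower gene under median-ratio scaling was PDE_00541, listed with the anaphase-promoting complex. Without PDE_09832 in the totals 3 genes were higher, against 6.82% of all genes, and 2 lower, against 9.85%. The distribution of differences shows this as a curve with few genes on the low side and a median near that of all genes.

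**Figure D1:**
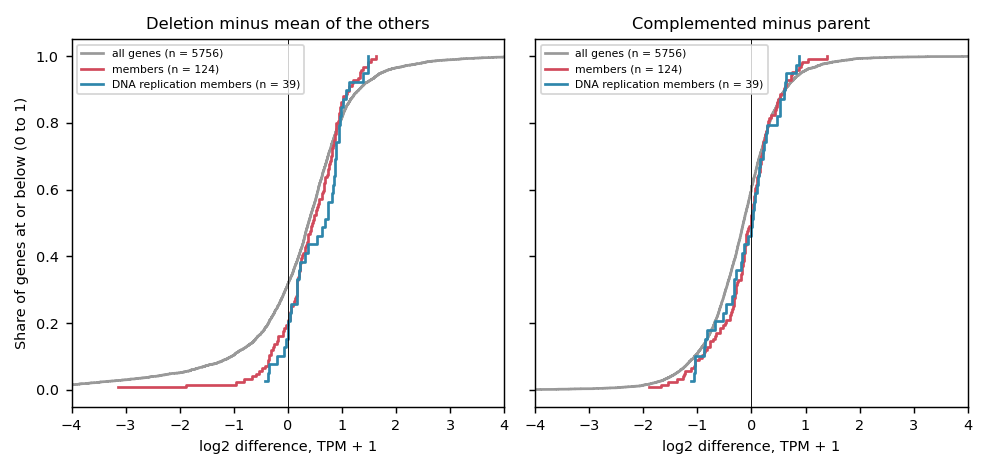
Cumulative share of genes (vertical axis, 0 to 1) against the log2 difference on the TPM + 1 scale, for all measured genes, the 124 members and the 39 DNA replication members. In the left panel (deletion minus mean of the others) the members' median is 0.46 against 0.38 for all genes and few members lie far to the left, a gap in medians that closes to 0.37 and 0.37 with a mean of 10 TPM required, and in the right panel (complemented minus parent) the members' median is 0.00 against -0.15.

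The 7 helicase rows did not share an order of strains. Mcm3 (PDE_02839), a subunit of the MCM ring, stood at 30.4 TPM in M12, 23.3 in Dmtr23B and 33.0 in Rmtr23B. The helicase PDE_03775, annotated to the pre-replicative complex, had 11.3, 10.7 and 10.7 TPM. PDE_02046, an origin-binding helicase, had 13.4, 15.2 and 15.8 TPM. In these 3 genes the strains lay within 1.5-fold of each other. PDE_04341 had 20.2, 25.1 and 22.6 TPM, and PDE_07619 had 29.8, 30.7 and 53.6 TPM in the same order, both being ATPases annotated to the replication fork. PDE_07619 was the one helicase row in which the complemented strain stood out, 1.80-fold above the parent (95% interval 1.40 to 2.32). PDE_09895 had 12.5, 20.3 and 9.82 TPM and PDE_02394, assigned by pathway entries alone, 28.6, 48.6 and 25.3 TPM, the deletion strain being highest in both. For PDE_02394 it was 1.70-fold above the parent (1.31 to 2.21) and 1.92-fold above the complemented strain (1.47 to 2.53). For PDE_09895 the ratios were 1.62 (1.09 to 2.44) and 2.07 (1.34 to 3.23). The median log2 difference of 0.06 over the 7 rows covers rows that lay on both sides of the other strains, and no row passed the edgeR test, with Mcm3 at an adjusted p of 0.463.

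Of 6 rows for factors that mark and load origins, 2 reached 10 TPM. Orc3 (PDE_00944) had 19.1, 19.1 and 21.7 TPM in M12, Dmtr23B and Rmtr23B, and Orc1 (PDE_07223) had 13.7, 14 and 10.7 TPM. Neither had a counting interval clear of 1 in the deletion strain. Among the other 4 rows, the loading factor Cdc6 (PDE_00841) had 6, 5 and 6 tags, and the DBF zinc finger protein PDE_08745, a family whose yeast member Dbf4 activates the kinase that fires origins, had 5, 12 and 11 tags. At these last counts a 2-fold difference was not detectable.

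Of 7 polymerase rows that reached 10 TPM, 5 were highest in the deletion strain, against 58.9% of all genes. DNA polymerase delta subunit 4 (PDE_07912), an accessory subunit of the main lagging strand polymerase, stood at 6.85 TPM in M12, 15.2 in Dmtr23B and 3.27 in Rmtr23B. It was 2.22-fold above the parent (1.33 to 3.81) and 4.65-fold above the complemented strain (2.39 to 9.89), with an edgeR adjusted p of 0.348. PDE_06556, assigned to the polymerases by pathway entries alone, had 32.4, 72.5 and 32.7 TPM, 2.23-fold above the parent (1.78 to 2.83) and 2.21-fold above the complemented strain (1.76 to 2.80), with an edgeR adjusted p of 0.415. Those were the polymerase rows past the 2-fold rule.

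Polymerase alpha, which extends the primers, was also highest in the deletion strain, without lying 2-fold above both others on the TPM + 1 scale. Its primase-associated subunit (PDE_07365) had 47.3, 90.7 and 51.2 TPM and its catalytic row (PDE_03844) 4.76, 11.3 and 5.36 TPM in M12, Dmtr23B and Rmtr23B. For PDE_07365 the ratio to the parent was 1.92 (1.58 to 2.34) and to the complemented strain 1.77 (1.46 to 2.15). For PDE_03844 the ratios were 2.38 (1.30 to 4.57) and 2.12 (1.18 to 3.94), and on the TPM + 1 scale the log2 differences were 1.10 and 0.96. The catalytic subunit of polymerase delta (PDE_07793) did not follow its subunit 4, with 8.33, 4.77 and 4.17 TPM. Nor did the primase row PDE_01738, with 12, 4 and 10 tags, at 0.334 of the parent (0.0785 to 1.10). The primase large subunit PDE_03003 had 12, 11 and 21 tags. Dmtr23B was at 0.525 of Rmtr23B there (0.229 to 1.14) and at 0.919 of M12 (0.367 to 2.27). The latter interval does not exclude a 2-fold rise over the parent. Among the remaining rows that reached 10 TPM, PDE_07383 was nearly level at 42.6, 43.9 and 42.3 TPM. PDE_07802 had 23.5, 31.3 and 33 TPM and PDE_05631 had 21.4, 19.1 and 13.1 TPM, neither being highest in the deletion strain. Over all 12 polymerase and primase rows the median difference was 0.17 (log2), and -0.21 after median-ratio scaling. It was 0.87 over the 7 rows that reached 10 TPM, of which 2, PDE_07912 and PDE_03844, did so in Dmtr23B alone.

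The sliding clamp showed its main difference in the complemented strain. PCNA (PDE_02943) had 56.5 TPM in M12, 70.7 in Dmtr23B and 25.6 in Rmtr23B. The parent was 2.21-fold above the complemented strain (1.70 to 2.88), and the deletion strain was 1.25-fold above the parent (1.03 to 1.52). The adjacent row PDE_02944, which carries the same PCNA terms, ran in the same order with 17.3, 25.1 and 12.2 TPM. The pathway text of these rows is identical.

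Of 6 measured clamp and clamp loader rows, 5 had their highest value in the deletion strain, against 58.9% of all genes. RFC1 (PDE_03220), the large subunit of replication factor C, had 11, 20.9 and 13.1 TPM in M12, Dmtr23B and Rmtr23B. PDE_03222, 2 locus numbers away and with identical pathway text, had 15.5, 29.8 and 14 TPM, 1.93-fold above the parent (1.37 to 2.75) and 2.13-fold above the complemented strain (1.49 to 3.08). PDE_09965, another loader-type ATPase, had 5.66, 11.3 and 8.63 TPM. It reached 10 TPM in Dmtr23B alone, so the minimum fixed that strain as its highest. The exception was the 37 kDa subunit PDE_01039, at 24.7, 26.0 and 30.4 TPM, which was nearly level. None of the 7 clamp and loader rows passed the edgeR test.

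Single-strand binding proteins shield unwound DNA. PDE_06234 had 75.9, 85.9 and 77.7 TPM in M12, Dmtr23B and Rmtr23B, Ssb3 (PDE_07406) had 29.8, 37.9 and 36.3, and PDE_07985, placed by pathway alone, had 24.7, 25.1 and 25.6. In these 3 genes the strains lay within 1.5-fold of each other. Others grouped with them by pathway varied more: PDE_08523, a nucleoside-triphosphatase, had 7.14, 15.2 and 11.6 TPM, with Dmtr23B 2.13-fold above M12 (1.29 to 3.62), and PDE_06925, without a description, had 5.36, 6.56 and 10.7 TPM, with Rmtr23B 2.00-fold above M12 (1.11 to 3.74).

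Of the enzymes that finish lagging strand fragments, flap endonuclease 1 (PDE_01571) had 15, 21 and 17 tags and ribonuclease H (PDE_02356), which removes RNA from RNA-DNA hybrids, 12.5, 15.2 and 8.33 TPM. The 2 DNA ligase rows differed from each other. PDE_04353 had 16.7, 24.8 and 7.44 TPM, with the parent 2.24-fold above the complemented strain (1.37 to 3.75), while PDE_04887, described as DNA ligase I, had 12.2, 13.4 and 9.23 TPM. PDE_02416, assigned by pathway alone, resembled PDE_04353 with 22.6, 29.2 and 10.4 TPM. All 3 rows were lowest in the complemented strain, 2 of them by more than 2-fold.

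**Figure D2:**
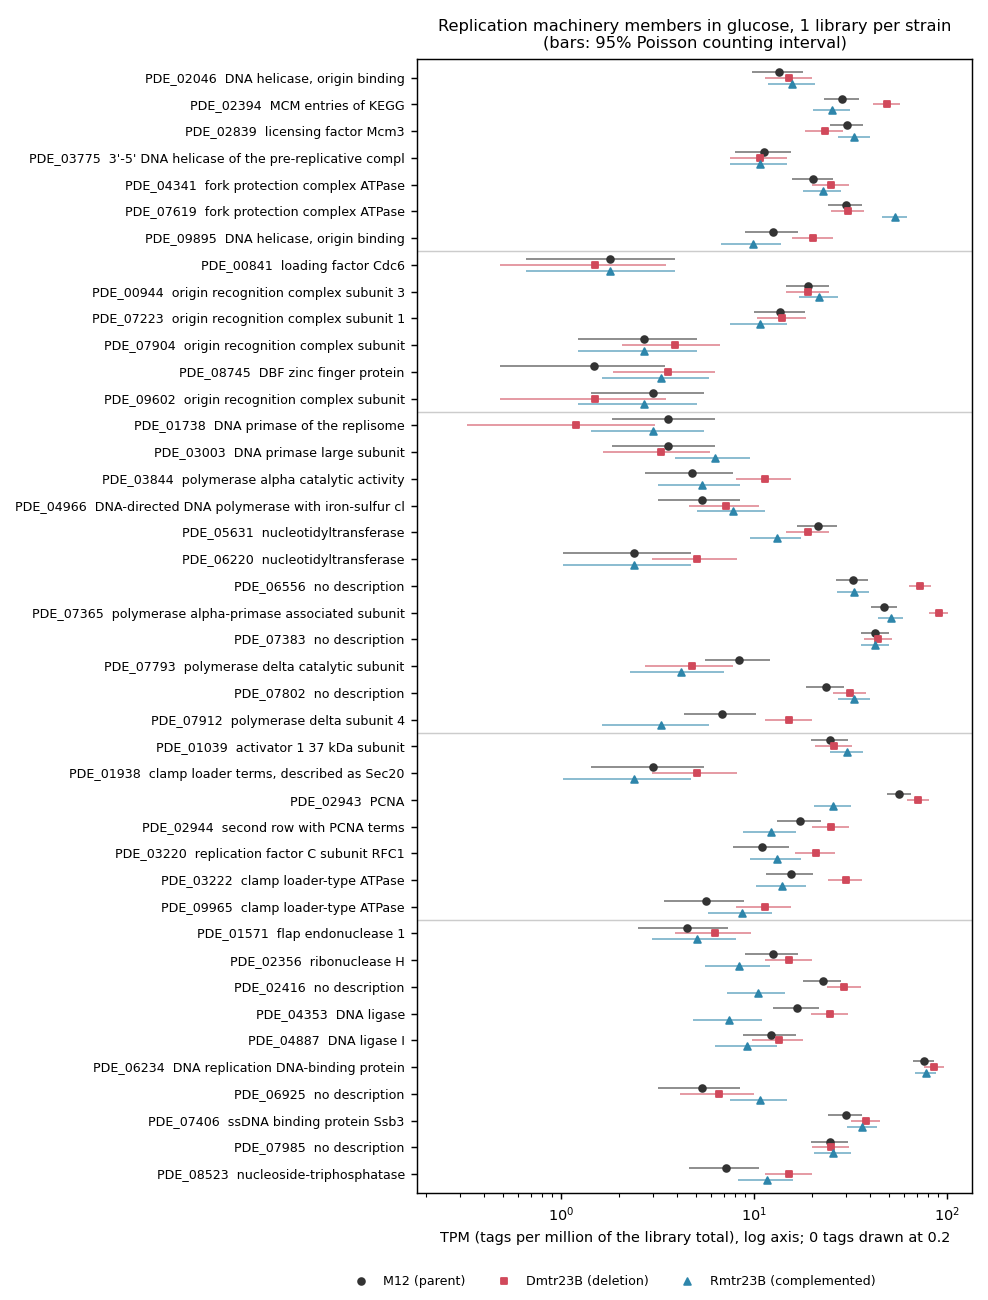
TPM on a log axis for each replication gene in M12, Dmtr23B and Rmtr23B, 1 library each, with bars for the 95% Poisson counting interval and horizontal lines between role groups. PDE_06556 and PDE_07365 lie to the right in the deletion strain (72.5 and 90.7 TPM), and PCNA lies to the left in the complemented strain (25.6 TPM).

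The DNA replication pathway also took in 6 histone-fold DNA-binding proteins, a fold shared by small polymerase epsilon subunits and by CCAAT-box transcription factors. HapE (PDE_01016), a subunit of the CCAAT-binding complex, had 77.4, 136 and 63.7 TPM in M12, Dmtr23B and Rmtr23B, whereas its partner HapC (PDE_02832) had 22.0, 15.8 and 19.1 TPM. For HapC both counting intervals include 1, with Dmtr23B at 0.718 of M12 (0.495 to 1.04) and 0.830 of Rmtr23B (0.566 to 1.21). PDE_06654 stood apart at 15, 35 and 7 tags, 2.34-fold above the parent (1.24 to 4.61) and 5.01-fold above the complemented strain (2.19 to 13.4), with an edgeR adjusted p of 0.394. PDE_01398, a CBF/NF-Y family factor annotated to negative cofactor 2, had 38.4, 53.4 and 18.2 TPM with M12 2.11-fold above Rmtr23B (1.55 to 2.92). The remaining rows, PDE_07192 and PDE_07287, had 8.33, 10.4 and 13.1 TPM and 14, 23.0 and 22.0 TPM.

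Over the whole DNA replication pathway, 39 of 47 genes reached 10 TPM, and 3 of them, PDE_07912, PDE_06556 and PDE_06654, stood apart in the deletion strain, all higher, or 7.69%, against 10.8% higher and 18.6% either way of all genes. None of the 3 was 2-fold apart after median-ratio or TMM scaling. Over all 47 genes the median difference was 0.53 (log2), against 0.30 for all 8902 genes, and 0.17 against -0.02 after median-ratio scaling. No gene of the pathway passed the edgeR test among 46 tested, and DESeq2 called none either.

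Cyclins and regulators of cyclin-dependent kinases gave few tags. The kinase regulatory subunit PDE_00989, which binds the cyclin-kinase complex, had 13.7, 27.4 and 16.1 TPM in M12, Dmtr23B and Rmtr23B, 2.00-fold above the parent (1.39 to 2.92) and 1.71-fold above the complemented strain (1.21 to 2.44). The cyclin Pcl1 (PDE_02889), whose yeast namesake partners the kinase Pho85, was highest in the parent, at 28.3, 17.0 and 17.0 TPM. PDE_02431, a predicted regulator of kinase activity, was lowest in the complemented strain, at 13.1, 20.3 and 3.87 TPM, with the parent 3.38-fold above it (1.79 to 6.85). Thus the 3 measured rows of this group each had a different order of strains.

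Below 10 TPM, PDE_00585, described as a component of a cyclin-dependent kinase complex, had 15, 2 and 20 tags in the same order. M12 exceeded Dmtr23B 7.48-fold (1.74 to 67.4), and the edgeR adjusted p was 0.151. An ankyrin repeat protein, PDE_08494, had 2, 17 and 0 tags, with an edgeR adjusted p of 0.242. The mitotic cyclin-type row PDE_08528 had 8, 6 and 6 tags, too few for a comparison.

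Among kinases that the rule left in, because their term reads protein serine/threonine kinase activity or kinase activity, PDE_03381 had no tag in the deletion strain. M12 had 15 tags and Rmtr23B had 45. Against a floor of 3 tags for the deletion library, 0.895 TPM, M12 was at least 4.99-fold higher and Rmtr23B at least 15.0-fold higher, and the exact lower limits that also cover counting error in the other library were 3.58 and 11.7. It missed the threshold in edgeR, at an adjusted p of 0.0594, and passed it in DESeq2, at an adjusted p of 0.0266. The file gives no role for it beyond kinase activity. The complemented strain was 3-fold above the parent (1.64 to 5.79), so all 3 strains differed. The cdk5-type kinase PDE_09155 had 210, 220 and 259 TPM and the cell division kinase PDE_06131 had 23.2, 31.0 and 39.3 TPM, both highest in the complemented strain. The median difference of all 11 kinases was 0.04 (log2).

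Phosphatases counter these kinases. The catalytic subunit of PP2A (PDE_08013), a phosphatase that restrains mitotic entry, had 77.1, 98.5 and 86.0 TPM in M12, Dmtr23B and Rmtr23B. Its 65 kDa scaffold (PDE_02756) had 37.5, 23.9 and 39.6 TPM and was lowest in the deletion strain, with the parent 1.57-fold above it (1.18 to 2.11) and the complemented strain 1.66-fold above it (1.25 to 2.22). The regulator PDE_06446 had 16.7, 12.5 and 8.04 TPM. The 3 PP2A rows therefore differed in order. PDE_04922, annotated to the RENT complex that holds the mitotic exit phosphatase in yeast, had 4, 8 and 7 tags, and the M phase phosphatase PDE_06982 had 7, 19 and 0. No phosphatase row passed the edgeR test.

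The SCF ligase tags cyclins and their inhibitors for breakdown. Its subunit sconC (PDE_02249), a Skp1-type adaptor, had 413, 454 and 368 TPM in M12, Dmtr23B and Rmtr23B. Cullin (PDE_00128), the scaffold, had 84.8, 87.4 and 75.0 TPM. The F-box protein GRR1 (PDE_02710), which in yeast recognises G1 cyclins, had 136, 174 and 161 TPM. Each of these 3 rows stayed within 1.5-fold across the strains, at counts of 252 to 1520 tags. In all 10 rows of the group that reached 10 TPM the deletion strain had the highest value, against 58.9% of all genes. Of these rows, 0 were 2-fold apart from both others. Their median log2 difference was 0.33, against 0.38 for all 5756 genes. After median-ratio scaling it was -0.05, against 0.00.

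Within this group 2 rows differed by more than 2-fold between the complemented strain and the parent. PDE_04391, annotated to protein ubiquitination, had 14.6, 20.3 and 3.87 TPM, with the parent 3.77-fold above the complemented strain (2.01 to 7.57). PDE_06965, described as the endoplasmic reticulum membrane protein Pkr1 but carrying cullin terms, had 29.2, 34.9 and 11.6 TPM, a ratio of 2.51 (1.72 to 3.74). PDE_03204, without a description, had 17.0, 32.8 and 11 TPM, with Dmtr23B 1.93-fold above M12 (1.39 to 2.71) and 2.98-fold above Rmtr23B (2.04 to 4.45). In PDE_04391 and PDE_06965 the parent lay nearer to the deletion strain than to the complemented strain.

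The anaphase-promoting complex, which starts chromosome separation, had rows that differed in both directions. Its activator Cdc20 (PDE_00577) had 22, 27 and 20 tags in M12, Dmtr23B and Rmtr23B, and Apc4 (PDE_00489) had 9.82, 14.3 and 8.04 TPM. ApcB (PDE_06963) had 12.5, 19.7 and 14.6 TPM. Subunit 11 (PDE_05991), the RING subunit, ran the other way at 11.6, 7.16 and 18.8 TPM, the complemented strain being 2.62-fold above the deletion strain (1.61 to 4.38), with an edgeR adjusted p of 0.280. PDE_00541, without a description, was also lowest in the deletion strain, at 13.7, 6.27 and 10.1 TPM, which was 0.458 of the parent (0.259 to 0.783) and 0.619 of the complemented strain (0.342 to 1.10). PDE_09892 ran the opposite way at 6.55, 11.9 and 4.76 TPM, with Dmtr23B 2.51-fold above Rmtr23B (1.37 to 4.79), and PDE_05990, which shares its pathway text with subunit 11, had 52.4, 71.9 and 53.9 TPM. Of 7 rows that reached 10 TPM, 5 had their highest value in the deletion strain and 2 their lowest. Of all genes, 58.9% and 23.6% did so. Of the 7 rows, 3 reached 10 TPM in Dmtr23B alone, so the minimum fixed that strain as their highest.

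Cohesin and condensin rows differed in order. The condensin ATPase Smc4 (PDE_01692) had 46.1, 70.7 and 57.5 TPM, and PDE_03082, a second condensin ATPase, 22.0, 26.9 and 23.2 TPM in M12, Dmtr23B and Rmtr23B. PDE_01509, a nuclear condensin subunit, was highest in the complemented strain, at 10.1, 11.3 and 19.9 TPM. PDE_06670, an SMC-type ATPase annotated to cohesion, was lowest in the deletion strain, at 20.5, 14.3 and 22.0 TPM. Cohesin Psm1 (PDE_01948) had 20, 33 and 24 tags. The median difference of the 5 rows was 0.24 (log2), and -0.03 over the 4 that reached 10 TPM, and none passed the edgeR test.

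The 4 measured checkpoint genes had counts of 12 to 54 tags. Mad2 (PDE_04235), which senses unattached chromosomes, had 8.93, 12.2 and 6.85 TPM in M12, Dmtr23B and Rmtr23B. Rfx1 (PDE_02161), described as a factor of the DNA damage and replication checkpoint, had 7.14, 13.1 and 4.17 TPM, and Rad18 (PDE_01499), a DNA repair protein, 12.2, 15.2 and 16.1 TPM. PDE_00207, annotated to the spindle checkpoint, had 33, 34 and 12 tags and was lowest in the complemented strain. The 12 Mob proteins and GTPase regulators of mitotic exit and septum formation held no row 2-fold apart in the deletion strain. Mob1 (PDE_03233), which activates mitotic exit kinases in yeast, had 46.4, 63.6 and 42.3 TPM, a second Mob1 family protein (PDE_03159) had 21.4, 41.5 and 21.4 TPM, and Mob2 (PDE_06786) had 10, 9 and 28 tags.

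**Figure D3:**
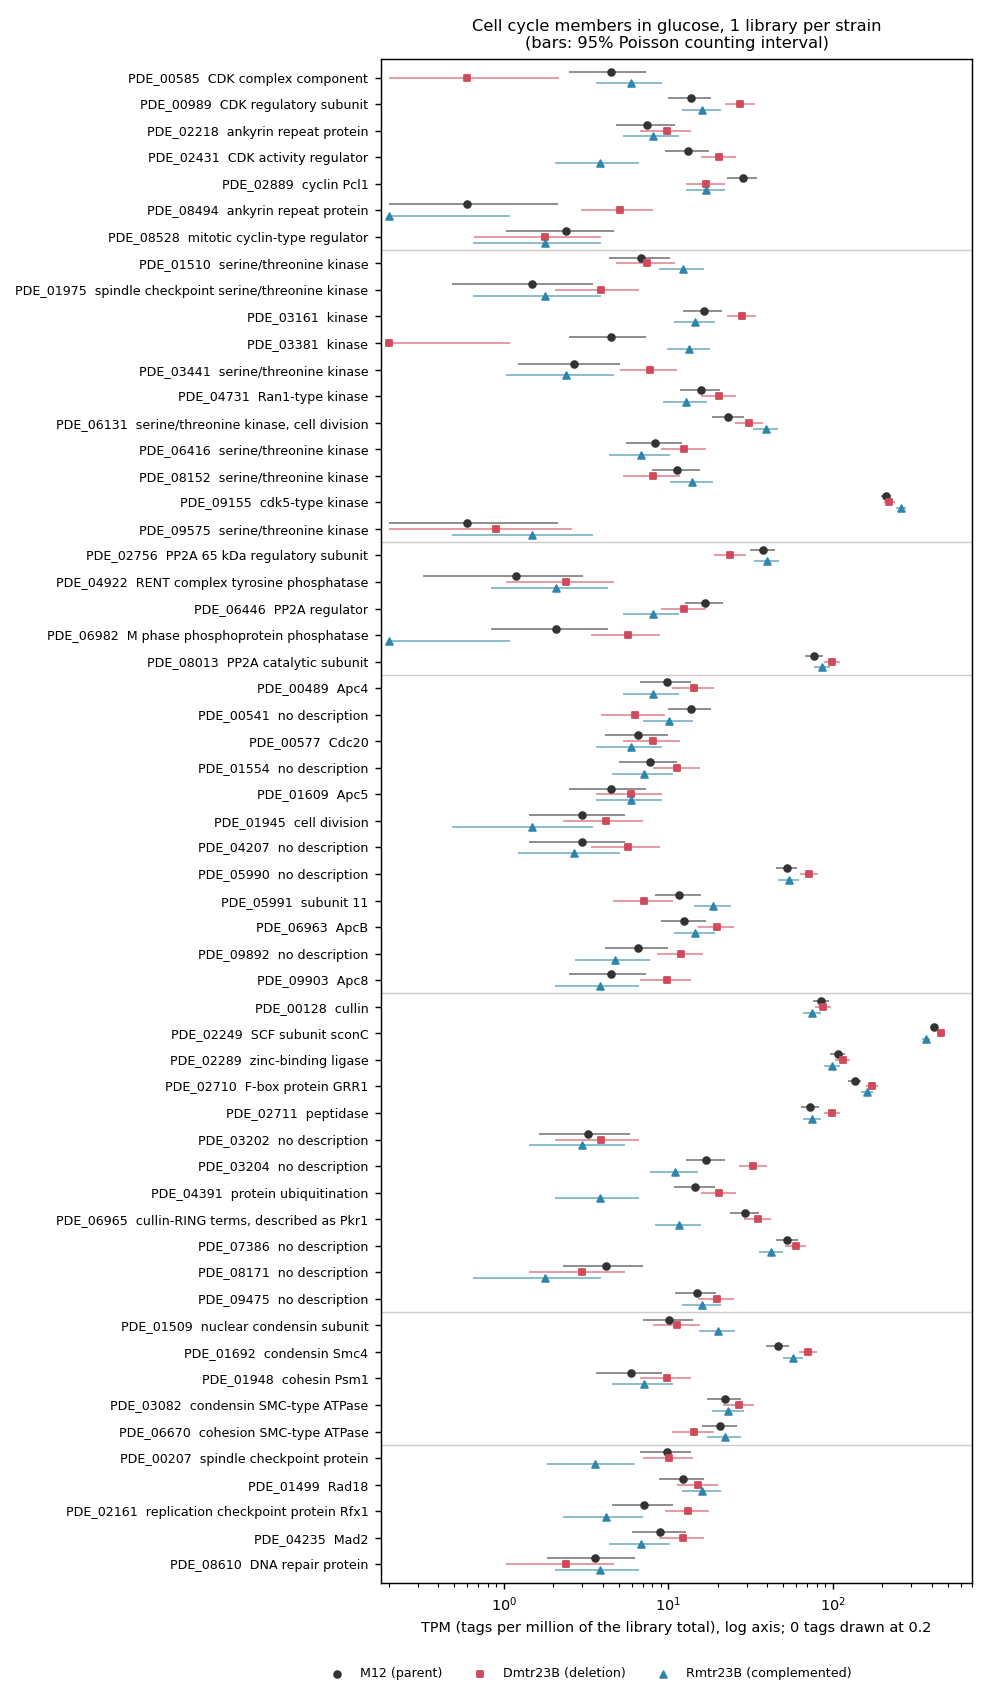
TPM on a log axis for cyclins, kinases, phosphatases, ubiquitin ligases, cohesin, condensin and checkpoint genes in M12, Dmtr23B and Rmtr23B, 1 library each, with bars for the 95% Poisson counting interval, 0 tags drawn at 0.2 TPM and lines between role groups. sconC (413, 454 and 368 TPM) and the cdk5-type kinase (210, 220 and 259 TPM) are nearly level, and PDE_03381 has no tag in the deletion strain.

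Among transcription factors and corepressors, 3 of 4 measured rows were highest in the deletion strain, against 58.9% of all genes. These 3 were lowest in the complemented strain. The exception, the corepressor rco-1 (PDE_01024), a Tup1-type protein that works with Cyc8 in yeast, had 144, 184 and 218 TPM in M12, Dmtr23B and Rmtr23B. Its partner Cyc8 (PDE_03177) had 11 tags in each library. The APSES factor PDE_02036, of a family that in yeast includes the G1 regulators Swi4 and Mbp1, had 18.8, 30.1 and 15.2 TPM, and PDE_09266 had 16.1, 21.2 and 15.2 TPM. For both, the counting interval between complemented strain and parent includes 1. For PDE_09266 the intervals of the deletion strain to either strain do so as well. PacC, the third, is given with the complemented strain, and 0 rows of the group were 2-fold apart in the deletion strain. Among other described proteins, the methyltransferase RmtC (PDE_07530), which modifies proteins, had 21.4, 47.4 and 29.5 TPM, and the nuclear pore subunit PDE_07919 had 12.2, 15.8 and 14.3 TPM.

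The single gene that passed the edgeR test was a WD repeat protein, PDE_07471, of the yeast cell cycle pathway. It had 173, 42 and 156 tags in M12, Dmtr23B and Rmtr23B, or 51.5, 12.5 and 46.4 TPM, so the strains with mtr23B lay together and the deletion strain apart. M12 exceeded Dmtr23B 4.11-fold (2.92 to 5.90) and Rmtr23B did so 3.70-fold (2.62 to 5.34). It fell by 2.32 on the log2 scale (SE 0.48), with an edgeR adjusted p of 0.0472 and a DESeq2 adjusted p of 0.0327. With library totals in place of TMM normalisation the edgeR adjusted p was 0.352, and with no filter on low counts 0.00991. WD repeats form a propeller that binds other proteins and occur in many pathways, and the file names no substrate or complex for this one.

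Besides those named under replication, 5 of 28 measured genes without a readable role (17.9%) lay 2-fold above both others in Dmtr23B, against 10.8% of all genes. All 5 are assigned to the yeast cell cycle pathway. PDE_00271, PDE_04568 and PDE_04806 reached 10 TPM in Dmtr23B alone, so the minimum admitted them through the strain in which they were high. With a mean of 10 TPM required, 4 of the 5 remained. PDE_00271 had 21 tags in M12, 67 in Dmtr23B and 18 in Rmtr23B, 3.20-fold above the parent (1.93 to 5.50) and 3.73-fold above the complemented strain (2.19 to 6.67), with an edgeR adjusted p of 0.185. It was the one of the 8 genes still 2-fold higher after median-ratio or TMM scaling. PDE_04806 had 14, 56 and 21 tags, PDE_04568 had 32, 87 and 33, PDE_05185 had 35, 85 and 36, and PDE_05357, annotated to the nucleus, had 42, 107 and 39. In these 5 the parent and the complemented strain lay within counting error of each other. Their edgeR adjusted p ranged from 0.185 to 0.389.

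Between the complemented strain and the parent, the comparison that asks how far the restored gene brought back the parental profile, 10 of 105 genes were 2-fold lower in the complemented strain and 2 were higher, 11.4% in all. Over 5226 genes with at least 10 TPM in 1 of these 2 libraries the shares were 10.8% lower, 4.52% higher and 15.3% in all. After median-ratio scaling 7 were lower and 5 higher (8.1% and 6.5% of all genes), after TMM scaling 7 and 5 (8.49% and 6.21%), and without PDE_09832 in the totals 7 and 6 (8.42% and 6.49%). PacC (PDE_05163), the transcription factor of the response to ambient pH, which KEGG lists here through its yeast relative Rim101, showed a wide gap, at 39.0, 43.3 and 9.82 TPM in M12, Dmtr23B and Rmtr23B. The parent was 3.97-fold above the complemented strain (2.69 to 6.01), while the deletion strain was 1.11-fold above the parent (0.870 to 1.42). The others were PCNA, the ligase PDE_04353, PDE_02416, PDE_01398, PDE_02431, PDE_04391 and PDE_06965, described above, and PDE_04896 and PDE_09540, with 65, 69 and 26 and with 52, 56 and 18 tags. The median-ratio factors were 0.969 for M12 and 0.864 for Rmtr23B. With them PCNA, PDE_04353, PDE_02416 and PDE_01398, all of the DNA replication pathway, were no longer 2-fold apart on the TPM + 1 scale.

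The choice of these 10 genes fixed the complemented strain below the parent. In all of them the deletion strain had the highest value, as in 58.9% of all genes. The share among all genes chosen in the same way was not counted. The counting interval of the deletion strain to the parent lay above 1 in PCNA, PDE_04353, PDE_01398 and PDE_02431. It included 1 in the others. The 2 genes higher in the complemented strain were PDE_03381 and the striatin Pro11 (PDE_09975), a scaffold protein, which had 11.6, 22.4 and 25 TPM. The complemented strain alone stood 2-fold apart from both others in 12 genes, 11 lower and 1 higher, or 9.68%, against 10.2% of all genes, 7.11% lower and 3.06% higher. The parent stood apart in 0 genes, against 2.92% of all genes.

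**Figure D4:**
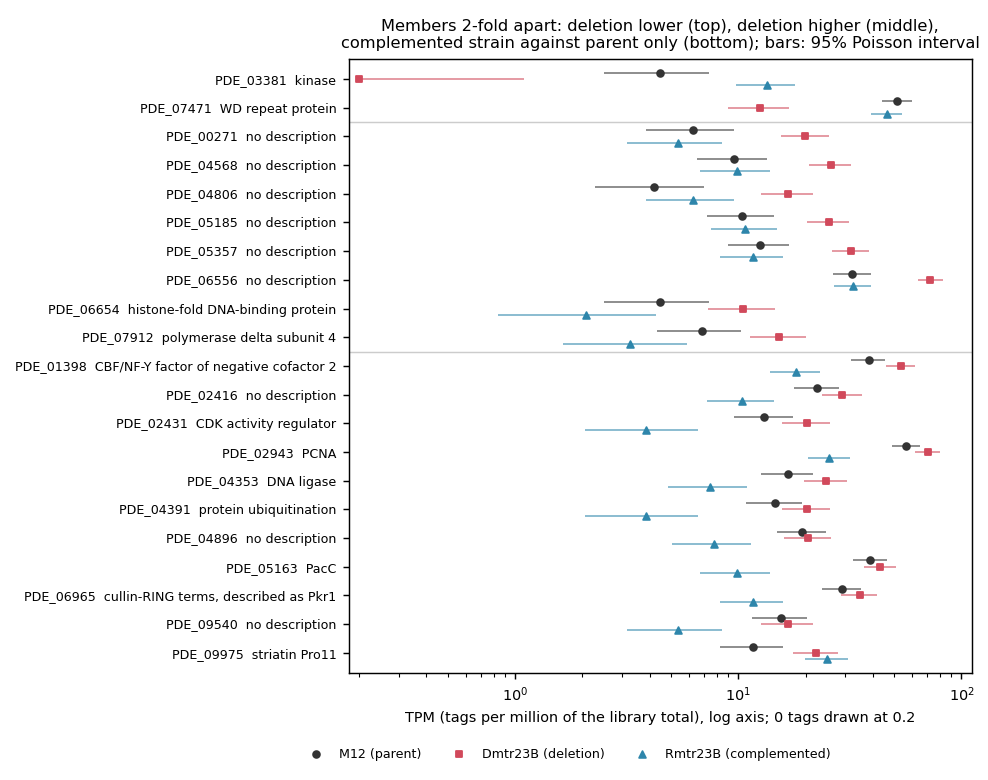
TPM on a log axis of the genes 2-fold apart, with bars for the 95% Poisson counting interval: lower in the deletion strain (top), higher in the deletion strain (middle), and 2-fold apart between the complemented strain and the parent alone (bottom). In the upper and middle blocks the deletion strain lies away from both others, and in the lower block the complemented strain lies left of both others except for striatin Pro11.

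Role medians describe a few rows each and are given over all rows of a role, with no minimum, beside 0.30 (log2) for all 8902 genes. The clamp and its loader stood at 0.75, histone-fold factors at 0.65, the anaphase-promoting complex at 0.53, single-strand binding and fragment maturation at 0.33, SCF and cullin ligases at 0.28, phosphatases at 0.27, cohesin and condensin at 0.24, polymerases and primase at 0.17 and the helicase at 0.06. After median-ratio scaling, with all genes at -0.02, the first 3 were at 0.38, 0.27 and 0.17. The other 6 of these changed sign and stood at -0.02, -0.06, -0.12, -0.14, -0.21 and -0.31 in the same order. Among the remaining roles, checkpoint and repair (0.58, scaled 0.22), transcription factors and corepressors (0.42, 0.04) and rows without a role (0.43, 0.09) stayed positive. Cyclins and kinase regulators (0.31, -0.04), kinases (0.04, -0.27) and Mob proteins and GTPase regulators (0.13, -0.19) changed sign. So did other described proteins (0.37, -0.01) and the origin complex and loading (0.05, -0.29).

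**Figure D5:**
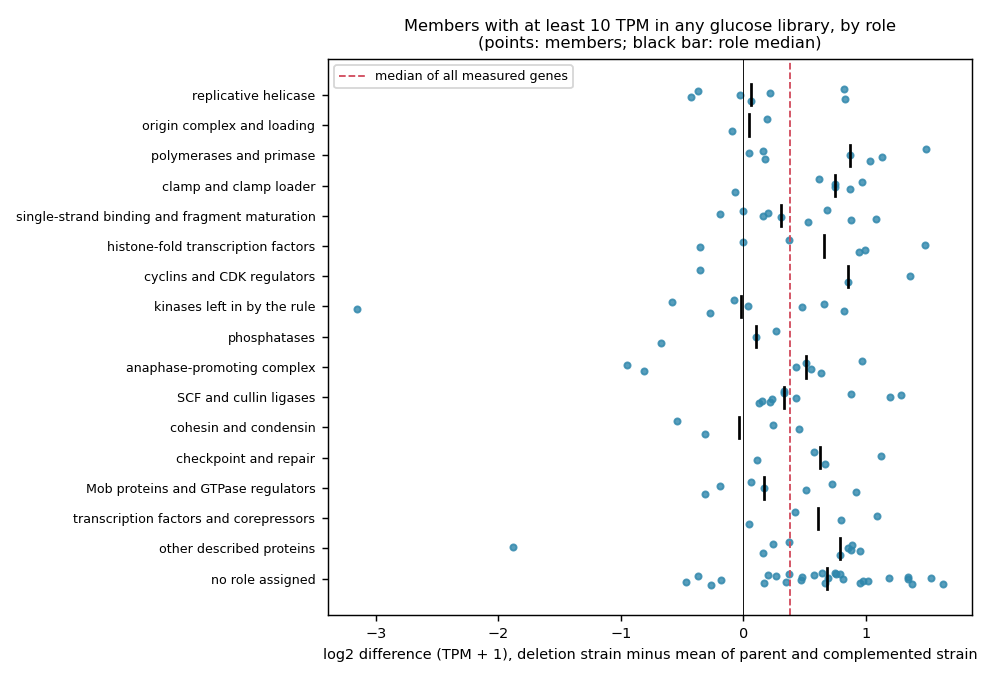
The log2 difference on the TPM + 1 scale of Dmtr23B from the mean of M12 and Rmtr23B for each gene with at least 10 TPM in any library, by role, with a black bar at the role median and a dashed line at the median of all genes (0.38). Points of most roles lie between -1 and 1.5, and PDE_03381 (-3.15) and PDE_07471 (-1.88) lie far to the left.

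Annotation itself limits what the set means. 16 pairs of these genes lie at most 2 locus numbers apart, and in 9 pairs, 18 genes, the pathway text is identical. Some neighbours carry replication entries beside a description of another protein: next to Mcm3 lies PDE_02840, described as the translation regulator Cya5 (17.0, 30.1 and 13.4 TPM in M12, Dmtr23B and Rmtr23B), and 2 numbers from PDE_04341 lies PDE_04343, described as the vacuolar transporter chaperone Vtc4 (11, 25.7 and 16.4 TPM). PDE_00247, described as a transporter, had 9, 0 and 10 tags. None of the 10 genes apart in the deletion strain belongs to a pair with identical text.

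Related genes outside the set were taken from annotation lists. By the size rule on unscaled TPM, 25 of 135 measured genes of nucleotide metabolism (18.5%) were higher in the deletion strain and 10 (7.41%) lower. In the meiosis list 12 of 56 measured genes (21.4%) were higher and 4 (7.14%) lower. Of 87 measured DNA repair genes, 4 (4.6%) were 2-fold higher and 9 (10.3%) lower in the deletion strain, against 10.8% and 7.82% of all genes. In edgeR 3 of 113 tested fell (2.65%, against 2.72% of all genes) and 0 rose (against 1.09%). The 3 that fell carry identical pathway text, which also names purine metabolism, and none is described as a repair protein. PDE_01067 had 58.6, 1.19 and 58 TPM in M12, Dmtr23B and Rmtr23B with an edgeR adjusted p of 0.0174. Those 3 genes also sit in the list of nucleotide metabolism, where 3 of 165 fell (1.82%) and 1 rose (0.606%), the RNA polymerase III subunit RPC10 (PDE_02595), which makes RNA and not DNA, at 39.0, 384 and 41.1 TPM (edgeR adjusted p 0.0229). In the meiosis list 3 of 72 rose (4.17%) and 1 fell (1.39%), against 1.09% and 2.72% of all genes. Those that rose were the hexose transporter PDE_08035, which imports sugar, at 23.2, 140 and 10.7 TPM (edgeR adjusted p 0.0343), and PDE_00771 and PDE_05486, which have no described role, and PDE_06397, also without one, fell.

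Of 5 histones, needed to package new DNA, 2 (40%) were 2-fold higher in the deletion strain, against 10.8% of all genes. Neither stayed 2-fold above both others after median-ratio scaling. The median log2 difference of the 5 was then 0.57 in place of 0.96, and that of all 5756 genes 0.00 in place of 0.38. H2B (PDE_01489) had 1137, 2711 and 677 TPM, and H3 (PDE_00233) had 110, 293 and 121 TPM, with edgeR adjusted p of 0.427 and 0.399. H4 (PDE_08392) did not share this order, at 210, 178 and 168 TPM. In the spindle and septum list 2 of 7 measured genes (28.6%) were 2-fold higher, and 0 of 12 tested passed the edgeR test. They were a septin (PDE_06826, at 56.3, 144 and 68.5 TPM) and a dynein light chain (PDE_07036, at 49.4, 101 and 30.7 TPM). Neither the septin nor the dynein light chain stayed 2-fold above both others after median-ratio scaling. The median of the 7 was then 0.34 in place of 0.71. Of the 5 kinases taken out by the rule, PDE_08919 was lowest in the deletion strain at 46.4, 15.8 and 114 TPM (edgeR adjusted p 0.107), while the checkpoint kinase Chk2 (PDE_06267) had 39.6, 51.9 and 30.7 TPM.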

How the data were processed

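Tag counts were deposited by the authors, not normalised, in 1 table of the whole series with library totals, per the file headers. The deposited TPM values are counts per 1000000 of those totals, to within 0.005 TPM. Per the labels' protocols, cDNA was cut by NlaIII and MmeI released a 17 bp tag. The tag mapper, genome build, use of strand and treatment of tags shared by paralogs or overlapping neighbours were not given in the sources used here. Values in cellulose and wheat bran did not follow the identifiers (Spearman across 8902 rows with glucose -0.009 to 0.002, against 0.851 to 0.945 between glucose libraries), so the 3 glucose libraries were used.

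The members and lists were chosen with earlier results of these data known. Named genes stood apart, passed a test, led their role by level, or belonged to a complex described above. Not every row of each complex is given, Apc5 and Apc8 being among those left out. A few further ones, such as PDE_06131, PDE_06982, PDE_08494 and Mob proteins, were named after their values were seen. Ratios have exact binomial 95% intervals. edgeR 4.0.16 (TMM, filterByExpr) and DESeq2 1.42.0 in R 4.3.3 adjusted p-values by Benjamini-Hochberg over all genes at 0.05, two-sided, with 1 residual degree of freedom. The edgeR step was run on simulated counts whose planted changes were much larger than most differences given here. That run cannot show its power for smaller ones. No replicate cultures are given.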

Additional observations from a re-analysis of the deposited data

How the results depend on the processing

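No paired analysis was possible because each strain has 1 library on glucose. The 8 genes higher in the deletion strain became 36 at 1.5-fold, 0 at 3-fold, 2 with a minimum of 30 TPM, 4 with a pseudocount of 5, 1 after median-ratio scaling, 1 after TMM scaling and 3 without PDE_09832 in the totals, and were 3 in DNA replication and 5 in the cell cycle pathway. The 2 lower genes became 5 at 1.5-fold, 8 with no minimum, 1 at 30 TPM, 1 with a pseudocount of 5, and 0 in DNA replication alone. Between complemented strain and parent, the 2 higher genes became 14 at 1.5-fold, 0 at 3-fold, 4 with no minimum, 0 at 30 TPM, 0 with a pseudocount of 5, 5 after median-ratio or TMM scaling and 6 without PDE_09832, and the 10 lower ones became 16 at 1.5-fold, 2 at 3-fold, 3 at 30 TPM and 5 with a pseudocount of 5. The 1 gene called lower by edgeR became 2 in DESeq2, 0 with library totals and 2 with no filter, and 0 were called higher in any of these. The median difference of 0.46 (0.38 over all genes) became 0.37 (0.37) with a mean of 10 TPM required, 0.35 against the parent alone, 0.35 with no minimum, 0.07 and 0.12 after median-ratio and TMM scaling, and 0.20 without PDE_09832 in the totals, an alternative chosen after seeing the data. Over all genes the split of 10.8% higher and 7.82% lower became 5.41% and 11% after median-ratio scaling. Leaving out either strain with mtr23B leaves a comparison of 2 libraries with no test. At 10 TPM a library has about 33.5 tags, which limits what can be seen in the 62 genes below it.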
